A study of Homo sapiens with 6 samples.

Results

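The RNAs described here are antisense RNAs, that is, genes whose symbol ends in -AS1 because they are transcribed across or beside the gene named before the suffix. An antisense RNA was kept when its probe was well above background, by the scanner software's flag, on all 6 arrays. The members were thus chosen by measured values, the detection flags and mean signals. Fold change was not part of the rule, but an RNA whose change took it to background on any array was thereby left out. Flags from a dim block of 1 array, masked as described below, counted as well. Detection on 5 arrays for those spots would add 38 antisense RNAs. The rule left 566 of the 952 antisense genes with a probe, each read by its detected probe with the highest mean signal. They were measured in AGS cells, an established line from a human gastric adenocarcinoma. The cells had received a nontargeting siRNA (si-Control) or the siRNA si-C1GALT1-3 48 h earlier. C1GALT1 is the galactosyltransferase that extends the first sugar of mucin-type O-glycans, and the comparison asked which RNAs change when it is knocked down. Each group had 3 samples and each sample had its own one-colour array, with no other treatment or genotype in either group. The data come from 1 siRNA sequence and 1 cell line.

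Antisense RNAs are mostly long noncoding RNAs in the nucleus, present at low levels. Many start at the same CpG-rich promoter as the sense gene and run away from it, others lie inside the sense gene or run into its end from the far side. Some act on the neighbouring gene in cis, by interfering with its transcription, pairing with its mRNA or bringing chromatin enzymes to the locus, and others act elsewhere, for example by binding microRNAs or proteins. For most of them no function is known.

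The promoter windows of the pairs on which the comparisons below turn are shown first, because they show how closely both transcripts of a pair can start. The 4 windows are those of pairs in which 1 RNA passed the threshold and whose windows lie most nearly on top of each other. Each runs 250 bases before to 50 bases after a transcript start, and the bases that also lie in the partner's window on the other strand are in capitals. The sequences are from RefSeq on build GRCh38.p14. The window of ID2, on the plus strand at chr2:8681806-8682105, shares 294 bases with that of ID2-AS1. The window of LCMT1-AS1, on the minus strand at chr16:25111506-25111805, shares 286 bases with that of LCMT1. The window of POT1-AS1, on the plus strand at chr7:124929623-124929922, shares 147 bases with that of POT1, and the window of FBXL19-AS1, on the minus strand at chr16:30923220-30923519, shares 198 bases with that of FBXL19.
ID2: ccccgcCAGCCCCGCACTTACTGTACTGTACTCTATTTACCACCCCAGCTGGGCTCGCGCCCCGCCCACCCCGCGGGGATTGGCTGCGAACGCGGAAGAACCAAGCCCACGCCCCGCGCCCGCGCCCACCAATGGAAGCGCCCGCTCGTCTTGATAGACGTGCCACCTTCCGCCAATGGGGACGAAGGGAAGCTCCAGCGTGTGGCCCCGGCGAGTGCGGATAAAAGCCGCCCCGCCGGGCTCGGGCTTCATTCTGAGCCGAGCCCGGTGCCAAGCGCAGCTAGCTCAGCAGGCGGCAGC
LCMT1-AS1: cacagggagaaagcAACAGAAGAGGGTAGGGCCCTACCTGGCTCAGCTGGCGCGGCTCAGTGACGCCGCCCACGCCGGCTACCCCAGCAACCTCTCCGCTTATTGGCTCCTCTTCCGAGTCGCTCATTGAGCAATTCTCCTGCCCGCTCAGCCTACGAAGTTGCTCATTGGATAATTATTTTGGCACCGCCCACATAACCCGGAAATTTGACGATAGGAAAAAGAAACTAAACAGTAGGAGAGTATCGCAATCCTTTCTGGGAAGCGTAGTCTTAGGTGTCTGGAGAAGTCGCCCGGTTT
POT1-AS1: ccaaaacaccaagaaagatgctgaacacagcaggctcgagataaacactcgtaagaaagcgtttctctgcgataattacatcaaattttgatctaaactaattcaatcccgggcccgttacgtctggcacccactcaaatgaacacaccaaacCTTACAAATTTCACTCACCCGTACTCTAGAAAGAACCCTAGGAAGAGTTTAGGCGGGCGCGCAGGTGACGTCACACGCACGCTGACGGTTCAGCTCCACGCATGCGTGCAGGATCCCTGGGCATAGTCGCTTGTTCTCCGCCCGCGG
FBXL19-AS1: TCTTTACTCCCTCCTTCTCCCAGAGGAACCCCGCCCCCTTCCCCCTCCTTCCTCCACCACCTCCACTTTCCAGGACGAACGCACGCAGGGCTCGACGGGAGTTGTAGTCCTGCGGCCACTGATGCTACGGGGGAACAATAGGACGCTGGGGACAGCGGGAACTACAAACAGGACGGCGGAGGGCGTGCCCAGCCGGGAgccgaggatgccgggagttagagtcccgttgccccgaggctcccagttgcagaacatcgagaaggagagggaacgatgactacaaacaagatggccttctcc
All 4 windows held a GC box, searched as GGGCGG on both strands. A CCAAT box (CCAAT, both strands) was found in the windows of ID2 and LCMT1-AS1, and no window held the letters TATAAA on either strand. Among the 482 promoter windows listed for 425 of the antisense RNAs, 47.5% held a GC box, 32.8% a CCAAT box and 8.51% the TATAAA motif, against 45.0%, 34.6% and 11.5% of all 35116 windows in the table.

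By the RefSeq annotation, 367 of the 368 antisense RNAs with a strand and a sense gene in the table lay on the strand opposite to the sense gene, and TUB-AS1 lay on the same strand. The 5′ ends overlapped head to head in 131 pairs, and 49 pairs ran head to head without overlap. In 111 pairs the antisense gene lay within the sense gene, in 61 the 3′ ends overlapped tail to tail, in 7 they faced tail to tail without overlap, and in 8 the sense gene lay within the antisense gene. No strand was given for the other 196, and for 2, HOXB-AS1 and KRTAP5-AS1, the name before the suffix is a gene cluster or family and not a gene.

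Across all arrays, 66.2% to 72.7% of the 60901 gene spots were well above background and none was saturated. A block of spots in the middle of si-Control replicate 2 was dim, with a median log2 deviation from the other arrays of -2.19 inside the block and -0.06 outside, and the 9712 gene spots in it were set to missing on that array. None of the 7 antisense RNAs called below was on a masked spot. Arrays of the same replicate number shared a slide, with si-Control always in column 1 and si-C1GALT1-3 in column 2, so slide position and treatment cannot be told apart. C1GALT1 itself had normalized log2 signals of 12.22, 13.03 and 12.62 in si-Control and 11.76, 11.98 and 11.13 in si-C1GALT1-3, a log2 fold change of -1.00 (SE 0.31, unadjusted p = 0.0193, adjusted p = 0.265 in limma), so the knockdown was about 2-fold and did not pass the threshold of the comparison. The 6 epithelial markers, keratins and EPCAM among them, were well above background on all 6 arrays. So were all 3 leucocyte markers with a named probe (PTPRC, CD3E and CD14), 3 of 5 fibroblast markers and 2 of 3 endothelial markers. Their part in the results was not tested.

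The median log2 signal of the detected antisense RNAs was 9.14, and that of 15273 other named genes detected by the same rule was 10.71, where a signal depends on the probe as well as on the RNA. The median standard error of the log2 fold change was 0.25 for the antisense RNAs and 0.23 for the other genes. Their mean log2 signals ran from 6.13 to 17.75. The dimmest inside the rule were OVOL1-AS1 and KIAA1671-AS1, both at 6.13, and PLS3-AS1 at 6.15. The brightest left out, each flagged on 5 of 6 arrays, were PITPNA-AS1 at 10.97, ARHGAP5-AS1 at 10.38 and AQP5-AS1 at 10.36. Of the 566, 421 had 1 detected probe and 145 had several, and 66 lay on a masked spot and had 2 si-Control values.

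Most detected antisense RNAs differed little between si-C1GALT1-3 and si-Control. In these bulk samples, fewer cells of a kind and less RNA per cell cannot be told apart. The fold change was under 1.5-fold for 460 of the 566 (81.3%), and 80.1% of the other detected genes were within the same bounds. The middle of the distribution ran from -0.38 to 0.21 on the log2 scale, with a median of -0.10, against -0.26 to 0.32 with a median of 0.03 for the other genes. By fitted value 235 antisense RNAs were higher and 331 lower. The direction of the median rests on the scaling: it was 0.00 without normalization between arrays. With each array scaled to its 75th percentile it was -0.13, where the median of all probes was -0.11.

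**Figure D1:**
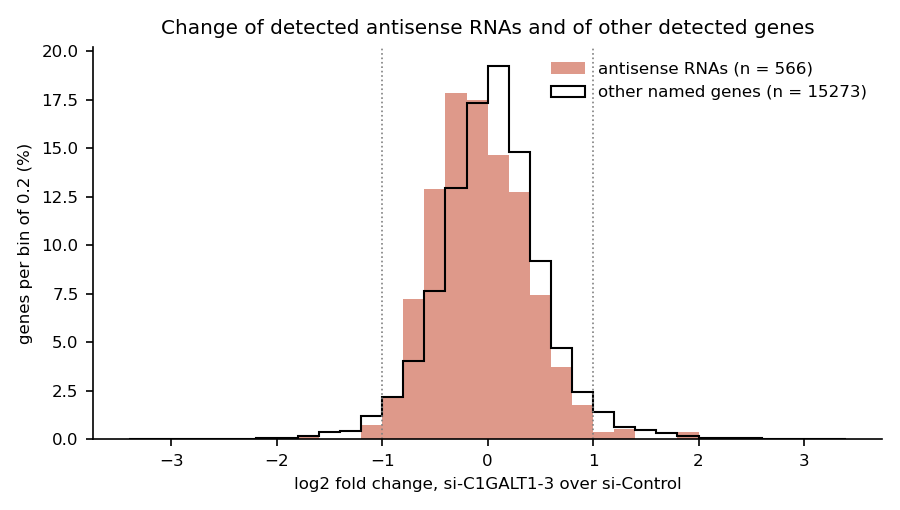
Histogram of log2 fold changes, si-C1GALT1-3 over si-Control, as the percentage of genes per bin of 0.2, for the 566 detected antisense RNAs (filled) and 15273 other detected named genes (line). Both distributions peak near 0, the antisense RNAs slightly to its left, and few of either lie beyond the dotted lines at 2-fold.

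At p under 0.01 and at least 2-fold, the threshold used throughout, 7 antisense RNAs passed (1.24%), 5 higher and 2 lower. Over all 58193 gene probes tested 2.64% passed, 1.65% higher and 0.992% lower, and over the other detected named genes 3.5% passed, or 4.44% of the 8576 of them with signals at or under the upper quartile of the antisense RNAs. After Benjamini-Hochberg adjustment over all probes, limma called 0 antisense RNAs at an adjusted p under 0.05, where 0.0842% of all probes passed. The lowest adjusted p was 0.0914. At an unadjusted p under 0.05 there were 85 (15.0%), against 13.8% of all probes and 19.0% of the other detected genes. In 134 (23.7%) the values of the groups did not overlap, 57 higher and 77 lower, against 21.5% of all probes and 27.7% of the other detected genes. The split into higher and lower calls was 5 to 5 with the 75th percentile and 6 to 1 without normalization. Nothing in the labels says that the 3 samples of a group came from separate cultures, so p-values measure the spread between these samples, which may be technical.

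RAB11B-AS1 rose most. RAB11B is a small GTPase of recycling endosomes. The antisense RNA had normalized log2 signals of 8.13, 7.99 and 7.49 in si-Control and 10.03, 10.06 and 9.38 in si-C1GALT1-3, with no overlap. The log2 fold change was 1.95 (SE 0.27, limma adjusted p = 0.0914), or 3.87-fold. RAB11B stood at 12.64, 12.91 and 12.57 against 12.93, 13.15 and 12.82, with overlap between the groups, a log2 fold change of 0.26 (SE 0.16). The log2 ratio of antisense to sense signal within arrays was 1.70 higher after knockdown, in an exact two-sided permutation test p = 0.1, the smallest value that 3 against 3 arrays can give. The pair was named because RAB11B-AS1 had passed on the same arrays, so the ratio is not separate support. The same holds for the ratios of ID2 and SGMS1 below. RAB11B-AS1 has 1 probe on the array.

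POT1-AS1 and LCMT1-AS1 also rose, beside sense genes with small differences. POT1 binds the single-stranded end of telomeres as part of shelterin, and LCMT1 methylates the catalytic subunit of protein phosphatase PP2A. POT1-AS1 read 5.99, 5.92 and 6.75 in si-Control and 7.66, 7.80 and 7.33 in si-C1GALT1-3, a log2 fold change of 1.38 (SE 0.28). POT1, whose start lies within the window printed above, read 10.28, 10.57 and 10.22 against 10.46, 10.35 and 10.21, a log2 fold change of -0.02 (SE 0.16). The groups did not overlap for the antisense RNA and did for POT1. With the replicate number as a block, POT1-AS1 had an unadjusted p = 0.0167 in limma and was not past the threshold. It also missed it without si-C1GALT1-3 replicate 1 or 2 or si-Control replicate 1 or 2, at log2 fold changes between 1.23 and 1.35, and its other probes were at background on all 6 arrays. LCMT1-AS1 read 6.24, 6.75 and 6.71 against 7.95, 7.81 and 7.55, a log2 fold change of 1.21 (SE 0.20), again with no overlap. LCMT1, with 1 of its spots masked, read 10.74, 10.62 and 10.97 against 10.94, 10.71 and 11.15 with overlapping groups, a log2 fold change of 0.16 (SE 0.18). The LCMT1-AS1 call was not past the threshold without the mask, at 1.02 with an unadjusted p = 0.0208 in limma.

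SH3PXD2A-AS1 and FBXL19-AS1 were the other antisense RNAs that rose past the threshold. SH3PXD2A encodes the Tks5 scaffold of invadopodia, and FBXL19 an F-box protein that binds unmethylated CpG islands. SH3PXD2A-AS1 read 6.53, 6.58 and 7.06 in si-Control and 8.12, 7.63 and 8.26 in si-C1GALT1-3, a log2 fold change of 1.28 (SE 0.24), with no overlap. SH3PXD2A was well above background on 0 of 6 arrays, so no fold is given for it. The call of SH3PXD2A-AS1 was lost without si-C1GALT1-3 replicate 1, at 1.22 with an unadjusted p = 0.0107 in limma. FBXL19-AS1 read 8.20, 7.54 and 8.27 against 9.15, 8.96 and 8.95, a log2 fold change of 1.02 (SE 0.23). Its groups did not overlap, but the value lies at the 2-fold limit and its second detected probe gave -0.01 (SE 0.35). The call was lost without any 1 of the si-C1GALT1-3 replicates, between 0.95 and 1.05, or without si-Control replicate 2, at 0.79. FBXL19 read 13.61, 13.29 and 13.38 against 13.66, 13.46 and 13.61, a log2 fold change of 0.15 (SE 0.15).

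SERPINB9-AS1 and CLRN1-AS1 fell. SERPINB9 inhibits granzyme B, and CLRN1 is a membrane protein of hair cells and photoreceptors. SERPINB9-AS1 read 9.25, 8.35 and 8.80 in si-Control and 6.84, 7.07 and 7.25 in si-C1GALT1-3, so that every knockdown array was below every control array. The log2 fold change was -1.74 (SE 0.26, limma adjusted p = 0.0993). SERPINB9 was well above background on 0 of 6 arrays. CLRN1-AS1 read 7.97, 7.86 and 7.66 against 7.02, 6.64 and 6.47, a log2 fold change of -1.12 (SE 0.19), also with no overlap. CLRN1 was detected on 0 arrays of si-Control and on 1 of si-C1GALT1-3. RAB11B-AS1 and SERPINB9-AS1 were past the threshold in every alternative run, whereas each of the other 5 fell out in at least 2 of them. The runs vary the processing and not the probe. Like RAB11B-AS1, SERPINB9-AS1, CLRN1-AS1, LCMT1-AS1 and SH3PXD2A-AS1 have 1 probe each.

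**Figure D2:**
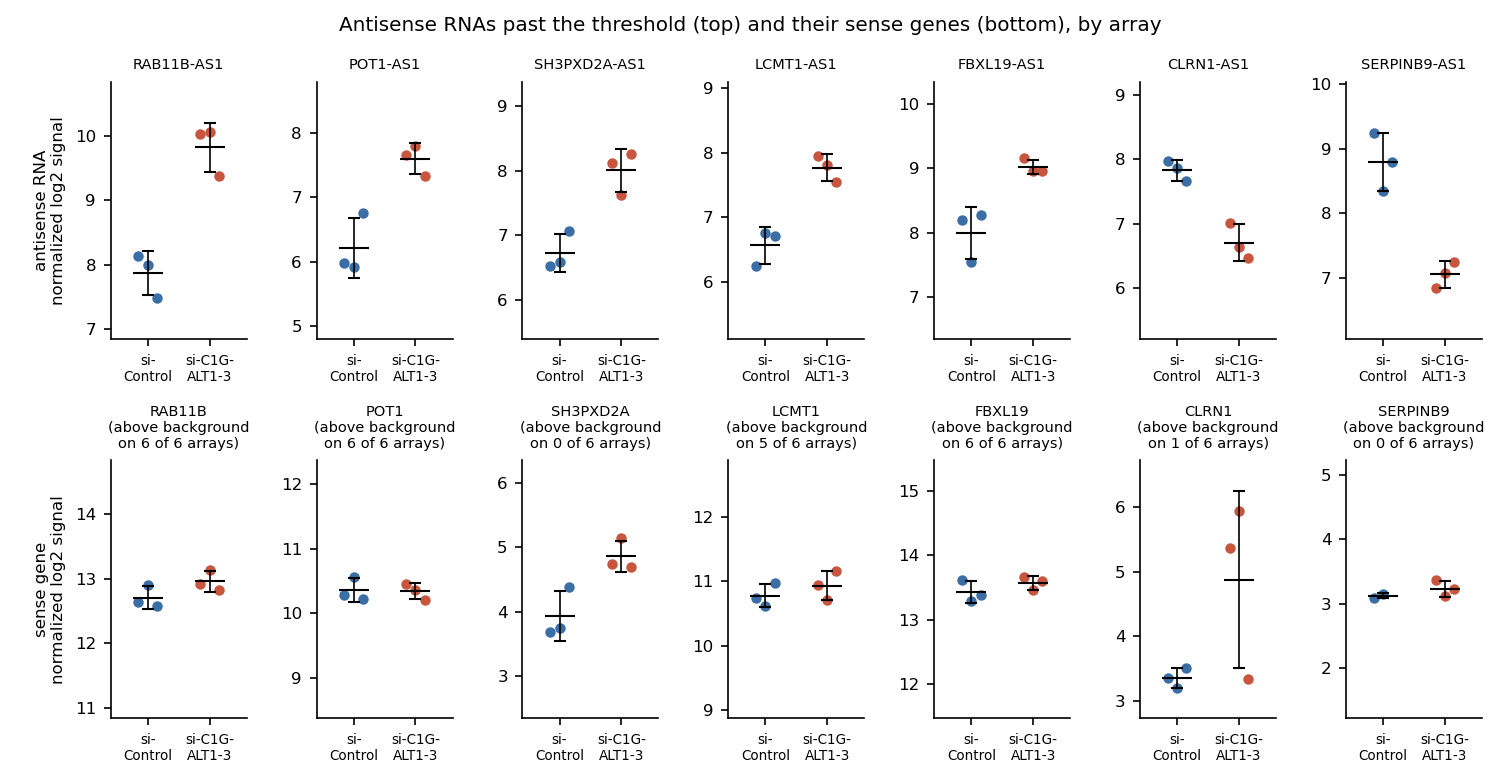
Normalized log2 signal on each array (points) with group mean and SD (line and bars) for the 7 antisense RNAs past the threshold, top, and their sense genes, bottom, in si-Control and si-C1GALT1-3. Each vertical axis spans about 4 log2 units or more and does not start at 0. The groups of every antisense RNA are apart, while those of RAB11B, POT1, LCMT1 and FBXL19, the sense genes detected on 5 or 6 arrays, overlap.

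Some antisense RNAs with large fitted changes did not pass, with a wider spread between arrays. ZBTB11-AS1 read 6.66, 6.39 and 8.51 in si-Control and 8.90, 8.62 and 9.75 in si-C1GALT1-3, a log2 fold change of 1.90 (SE 0.63). The 2 groups did not overlap, and si-Control replicate 3 and si-C1GALT1-3 replicate 3 were the highest of their groups. With the replicate number as a block it passed, with an unadjusted p = 0.00334 in limma. LENG8-AS1 (1.13, SE 0.46), whose groups overlapped, also passed with the block, at an unadjusted p = 0.00292. OBI1-AS1 had a log2 fold change of 0.99 (SE 0.37). On the other side were USP30-AS1 at -1.18 (SE 0.50), SCN1A-AS1 at -1.14 (SE 0.30) and AFAP1-AS1 at -1.07 (SE 0.30), a long noncoding RNA studied in several carcinomas. AFAP1-AS1 read 9.25, 9.50 and 9.24 in si-Control and 7.72, 8.22 and 8.84 in si-C1GALT1-3, and AFAP1, which cross-links actin filaments, differed the other way by 0.59 (SE 0.18) without passing. LAMP5-AS1 and JAZF1-AS1 each had a log2 fold change of -0.97.

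The 555 pairs in which the sense gene had a value were then set side by side. The sense gene was well above background on all 6 arrays in 402 of them and on none in 55, and 83 sense probes lay on a masked spot. Of the 555 sense genes 16 (2.88%) passed the threshold, 9 higher and 7 lower, against 3.41% of all named genes with 1 probe each, 2.08% higher and 1.33% lower. With 1 probe a gene there were 0 pairs in which both RNAs passed in limma, and 15 in which both had an unadjusted p under 0.05. Taken singly, 15.0% of the antisense RNAs and 19.0% of the other detected genes were under 0.05. Whether 15 pairs differ from what those shares would give was not tested. The fitted changes had the same sign in 285 pairs (51.4%). Across pairs, which share arrays and normalization and are not independent replicates, Pearson's r of the log2 fold changes was -0.02 and Spearman's rho was 0.01, and with the sense gene detected on all 6 arrays r was -0.04 over 402 pairs. Between 2 probes of the same antisense RNA r was 0.07, as given below. An r near 0 here therefore does not show that the RNAs of a pair change apart.

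The pairs were also described by their arrangement. Over 179 head-to-head pairs r was 0.04, and over the 88 pairs whose promoter windows overlap it was 0.01. Over 111 antisense genes within a sense gene it was -0.14. Over 59 tail-to-tail pairs with overlapping 3′ ends it was -0.37, and -0.31 without the 2 pairs with the most extreme sense values, HPN-AS1 and CKMT2-AS1. In these last pairs 27 of 59 had the same sign.

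The 16 pairs whose sense gene passed had antisense changes between -0.72 and 0.73, each smaller in size, by the probe used for each gene, than that of the sense gene as fitted. These sense genes were picked for changes of at least 2-fold, which 12 of all 566 antisense RNAs reached. The smaller antisense change therefore follows largely from how the pairs were picked. Other probes passed the threshold for 2 of the antisense RNAs in the 16 pairs, C1RL-AS1 and PDCD4-AS1, whose sense genes passed too. The sign was the same in 8 of the 16, and 4 antisense RNAs had an unadjusted p under 0.05. The 9 sense genes that rose include PDCD4, which inhibits translation through eIF4A, ID2, a dominant-negative helix-loop-helix protein, CDK6, the partner kinase of the D-type cyclins, and ACTA2, smooth muscle actin. Those that fell include PRC1, which bundles microtubules of the spindle midzone, the cytidine deaminase APOBEC3B, SGMS1, which makes sphingomyelin, and PRKAG2, a regulatory subunit of AMPK.

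ID2 rose and ID2-AS1 had a lower fitted value, and their promoter windows share nearly all bases, as printed above. ID2 read 11.53, 12.37 and 11.95 in si-Control and 13.40, 13.15 and 13.64 in si-C1GALT1-3, a log2 fold change of 1.45 (SE 0.26), with no overlap. ID2-AS1 read 11.81, 11.12 and 10.92 against 10.68, 10.39 and 10.61, a difference of -0.72 (SE 0.26, unadjusted p = 0.0351 and adjusted p = 0.321 in limma) that is under 2-fold, also with no overlap. The log2 ratio of ID2-AS1 to ID2 was lower by 2.17 after knockdown (exact permutation p = 0.1). The other ID2-AS1 probe, well above background on 3 arrays, gave 0.31 (SE 0.47).

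PDCD4 had the largest rise of the 16, from 8.14, 7.75 and 6.80 to 10.01, 10.12 and 9.55, a log2 fold change of 2.33 (SE 0.38). PDCD4-AS1 read 14.32, 13.95 and 13.80 in si-Control and 13.42, 13.21 and 13.69 in si-C1GALT1-3, with groups just apart, a difference of -0.59 (SE 0.21) that did not pass. A dimmer probe for PDCD4-AS1, well above background on 3 arrays, went the other way and passed the threshold at 1.43 (SE 0.22). The sign for PDCD4-AS1 therefore depends on the probe.

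In the pairs of C1RL and SH3BP5 both RNAs had higher values after knockdown. C1RL is a serine protease related to complement C1r, and SH3BP5 is an exchange factor for RAB11. C1RL read 9.93, 9.72 and 9.08 in si-Control and 10.87, 10.63 and 10.56 in si-C1GALT1-3, a log2 fold change of 1.11 (SE 0.25) with no overlap. C1RL-AS1 read 11.13, 10.45 and 10.66 against 11.60, 11.44 and 11.40, a difference of 0.73 (SE 0.21), also with no overlap. Its other probes gave 0.67, 1.17 and, on 5 arrays, 1.02, so all 4 probes for this antisense RNA had the same sign. The probes at 1.17, which is detected on all 6 arrays, and at 1.02 passed the threshold. SH3BP5 rose from 8.45, 8.45 and 8.63 to 9.98, 9.67 and 9.80, a log2 fold change of 1.31 (SE 0.15). SH3BP5-AS1 read 6.71, 5.88 and 6.47 against 6.99, 6.93 and 7.24, a difference of 0.70 (SE 0.25) that did not pass, without overlap.

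Beside the other 12 sense genes that passed, the antisense RNA had an unadjusted p above 0.05. SGMS1, the one sense gene with an adjusted p under 0.05 (0.0499), fell from 8.79, 8.78 and 8.82 to 6.93, 6.71 and 6.62, a log2 fold change of -2.04 (SE 0.14). SGMS1-AS1 read 8.90, 8.13 and 8.77 against 8.67, 8.21 and 8.34, with overlap, a difference of -0.19 (SE 0.26). In this pair, named because SGMS1 passed, the log2 ratio of SGMS1-AS1 to SGMS1 was higher by 1.85 (exact permutation p = 0.1). PRC1 fell by 2.21 on the log2 scale (SE 0.42), from 10.63, 11.25 and 10.64 to 8.84, 9.26 and 7.79, while PRC1-AS1 overlapped between groups at 0.20 (SE 0.36). CDK6 rose by 1.57 on the log2 scale (SE 0.16), from 12.17, 12.22 and 12.51 to 13.74, 13.82 and 14.05, and CDK6-AS1 was at -0.14 (SE 0.31).

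ACTA2 rose by 1.64 (SE 0.20) and ACTA2-AS1 was at 0.28 (SE 0.57). RAB6C was at -1.50 (SE 0.18) and RAB6C-AS1, with 2 si-Control values, was at 0.15 (SE 0.69). PRKAG2 was at -1.02 (SE 0.14) and PRKAG2-AS1, masked on 1 array, at -0.40 (SE 0.19). PRRT3 was at 1.04 (SE 0.13) and PRRT3-AS1 at -0.10 (SE 0.12). APOBEC3B, at -2.11 (SE 0.22), and TROAP, at -1.04 (SE 0.20), rest on 2 si-Control arrays because of the mask, and without the mask APOBEC3B was at 0.01 and TROAP at -0.09. Their antisense RNAs, unmasked, were at -0.18 (SE 0.21) and -0.07 (SE 0.26). TPRG1, LINGO1 and MAP9 were not well above background in 1 group, nor on every array of the other, so no fold or bound is given. TPRG1 and LINGO1 were each detected on 0 si-Control and 2 si-C1GALT1-3 arrays, and MAP9 on 2 and 0. TPRG1-AS1 was at -0.49 (SE 0.26), LINGO1-AS1 at -0.11 (SE 0.17) and MAP9-AS1 at -0.06 (SE 0.18). Of the 16 sense genes 10 passed whichever array was left out, and C1RL, LINGO1, MAP9, PRKAG2, PRRT3 and TROAP did not without at least 1 array, each of the 6 arrays costing at least 1 of them its call.

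**Figure D3:**
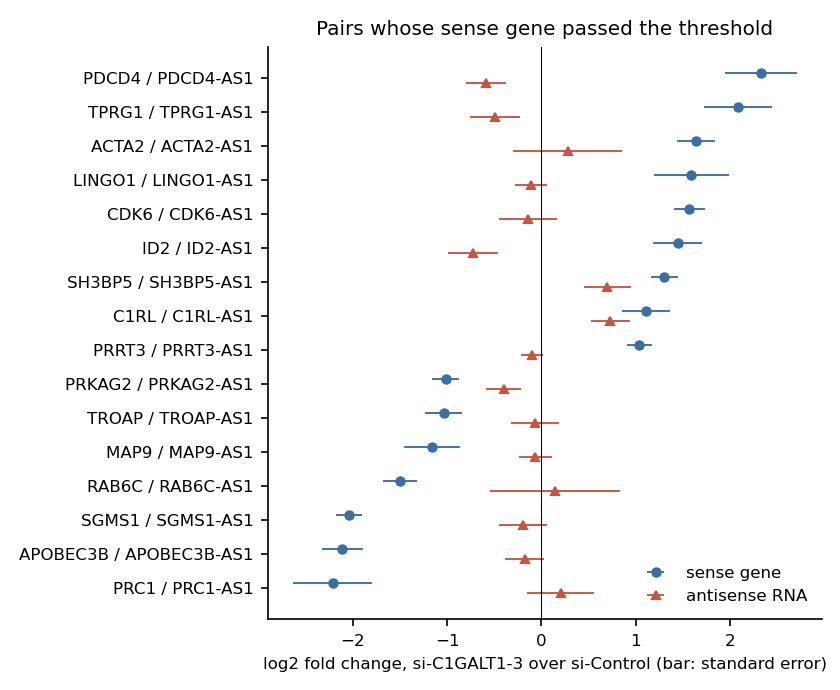
Log2 fold change (si-C1GALT1-3 over si-Control) with its standard error for the 16 sense genes past the threshold (circles) and their antisense RNAs (triangles). The antisense RNAs lie between -0.72 and 0.73, and each, by the probe used, is nearer 0 than its sense gene. Only the sense genes were picked for a change of at least 2-fold. TPRG1, LINGO1 and MAP9 are plotted at their fitted value although no fold can be given.

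Of the 15 pairs in which both RNAs had an unadjusted p under 0.05, 8 had the same sign and 7 opposite signs. The pairs with opposite signs were those of ID2, PDCD4, AFAP1, HEXA, SBF2, ARHGEF26 and MAPT, the last 4 named after their values were seen. By the probes used, the antisense RNA was lower and the sense gene higher after knockdown in all 7. Among the 15 sense genes all but LOXL2, also named after its value was seen, were higher. Opposite signs beside those genes could therefore only mean a lower antisense RNA. The pairs were picked by their p-values, and the median of all antisense RNAs was -0.10, against 0.03 for the other genes. The probes of MAPT and ARHGEF26-AS1 lay on masked spots, and that of MAPT was well above background on 1 si-Control array. Other probes gave positive values for ID2-AS1 and PDCD4-AS1, as above, and for MAPT-AS1, whose second detected probe was at 0.33. SBF2-AS1 was at -0.95 (SE 0.14) and SBF2 at 0.77 (SE 0.28). HEXA-AS1 was at -0.64 (SE 0.16) and HEXA, a lysosomal hexosaminidase subunit, at 0.44 (SE 0.16).

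Antisense RNAs with roles described in tumours or regulation were taken from a list of 20, of which 16 were detected. None of them passed, where 2.64% of all probes did, and 2 had an unadjusted p under 0.05, against 13.8% of all probes. By fitted value 9 were higher and 7 lower, and their median log2 fold change was 0.05. FOXD2-AS1 read 9.66, 9.62 and 9.80 in si-Control and 9.07, 8.96 and 8.70 in si-C1GALT1-3, with no overlap, a log2 fold change of -0.79 (SE 0.15, unadjusted p = 0.0025 and adjusted p = 0.141 in limma) that is under 2-fold. FOXD2, a forkhead factor, was at 0.44 (SE 0.38). CDKN2B-AS1, also called ANRIL, at the locus of the CDK inhibitors, was at -0.39 (SE 0.15).

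OIP5-AS1, which binds miR-7, was at 0.16 (SE 0.15), beside -1.02 (SE 0.34, not past the threshold) for OIP5, a centromere protein that helps load CENP-A. TMPO-AS1 was at 0.25 (SE 0.23), beside -0.72 (SE 0.32) for TMPO, which encodes lamina-associated polypeptides. PSMA3-AS1 was at 0.46 (SE 0.18), LOXL1-AS1 at -0.39 (SE 0.21), ZEB1-AS1 at 0.33 (SE 0.29), SPRY4-AS1 at -0.31 (SE 0.28), VPS9D1-AS1 at -0.30 (SE 0.13) and FGD5-AS1 at 0.28 (SE 0.20). MCM3AP-AS1, THAP9-AS1, HIF1A-AS1, MNX1-AS1, GATA3-AS1 and PCBP1-AS1 lay between -0.19 and 0.20. Each antisense value is from the brightest detected probe. Other probes detected on all 6 arrays gave 0.10 for VPS9D1-AS1, and -0.30, -0.62 and -0.18 for PCBP1-AS1. For FGD5-AS1 they gave 0.37, 0.25, -0.12 and -0.24, and for THAP9-AS1 -0.07 and 0.14. Those of PSMA3-AS1 (0.63), OIP5-AS1 (0.42), LOXL1-AS1 (-0.28), ZEB1-AS1 (0.19) and MCM3AP-AS1 (0.12 and 0.06) kept the sign.

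Genes with several probes show how closely repeated readings of the same gene agree. Over 145 antisense RNAs with at least 2 detected probes, the changes read by the brightest and the next probe had r = 0.07 and the same sign in 81 (55.9%), with a median absolute difference of 0.41 on the log2 scale. Over 126 of their sense genes r was 0.60 and the median difference 0.23. Over 3654 other named genes r was 0.63, with the same sign in 71.9% and a median difference of 0.21. The second probes of the antisense RNAs were dimmer, at a median log2 signal of 8.39 against 9.95 for the other genes. Where both probes were at or above 8.39, r was 0.37 over 73 antisense RNAs and 0.70 over 2741 other genes, and where both were below it, 0.38 over 251 other genes. These correlations are across genes on the same arrays and describe agreement between probes. Whether the probes of an antisense RNA read different transcripts, or the overlapping sense RNA, was not tested.

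**Figure D4:**
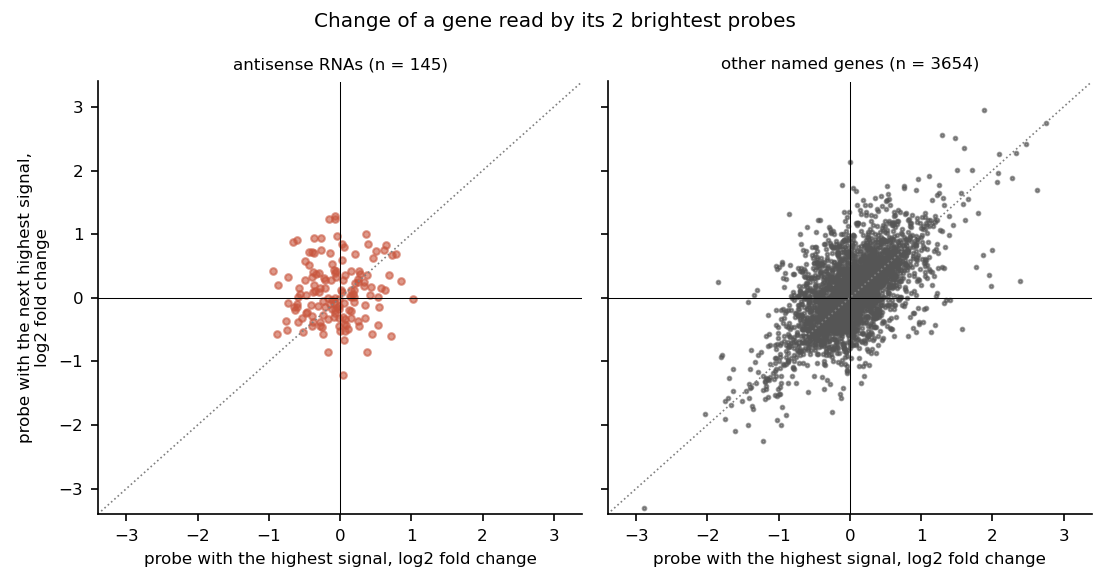
Log2 fold change (si-C1GALT1-3 over si-Control) by the brightest detected probe of a gene (horizontal) and by its next brightest (vertical), for 145 antisense RNAs, left, and 3654 other named genes, right, with the line of equal change dotted. The antisense RNAs form a round cloud (r = 0.07) and the other genes an elongated one along the line (r = 0.63).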

How the data were processed

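Total RNA from 6 samples of AGS cells was labelled as cDNA and hybridized to 6 one-colour Agilent arrays. The authors deposited the scanner output of Agilent Feature Extraction version 10.5.1.1, per the submitters' processing notes, in which each value is a fluorescence intensity per spot, background-corrected and not normalized between arrays. A series table deposited by the authors holds background-subtracted intensity and was used as an alternative only. The authors' quantile normalization and limma test come after these files and were repeated here. The annotation in the files is on hg19.

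Control spots were left out, spots marked non-uniform or as population outliers (100 to 424 an array) were set to missing, as were spots in rows 113 to 288 and columns 59 to 115 of si-Control replicate 2. Log2 processed signals were quantile normalized, spots of a probe averaged, and groups compared with limma version 3.58.1 (lmFit, eBayes) in R version 4.3.3 over 58193 probes, with Benjamini-Hochberg adjustment over all of them. Signals called log2 signal without "normalized" are log2 processed signals. A probe passed at p under 0.01 and 2-fold. Of 58201 probes, 31104 were named through the RefSeq accession in a RefSeq gene table of GRCh38.p14, which also gave strands and promoter windows. The sense gene was the symbol before -AS1, read by its probe with the highest mean signal. A bound for a gene not above background was computed against the higher of its own signal and the lowest signal well above background on each array. It is given only where every array of the other group was well above background. The within-array ratio of a pair was tested by exact two-sided permutation. Precision is limited by how many arrays there are. The fit was tested on simulated data.

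Named were C1GALT1, every antisense RNA past the threshold, the 8 largest rises and 8 largest falls, those whose sense gene passed, and 20 with described roles, each with its sense gene; others are said to be named after their values were seen. An RNA that this rule names is not reported here. The antisense RNAs, the lists and the mask were chosen with earlier results of these data known. Same-numbered arrays shared a slide, and their deviations from the group means correlated at 0.198, 0.215 and 0.329 for replicates 1, 2 and 3. They were taken as pairs in the replicate block alternative only. The main comparison had no term for the slide, and the permutation test exchanged arrays across slides. Alternatives were another or no normalization, no or a wider mask, detection on 5 arrays for masked spots, dim probes left out, the replicate block, a trend and robust prior, the methods' t-test, outlier spots kept, normexp, the series table, the median over probes and leaving out each array.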

Additional observations from a re-analysis of the deposited data

How the results depend on the processing

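The precision is limited by 3 arrays a group, and several counts are small enough that single calls move them. Relative to 5 antisense RNAs higher and 2 lower, the counts were 5 and 5 with the 75th percentile, 6 and 4 with dim probes left out, 3 and 2 with the methods' t-test, 3 and 5 without the mask, 6 and 1 without normalization, 2 and 1 with normexp, and 8 and 2 with detection on 5 arrays for masked spots. With single arrays left out they ran from 2 to 7 higher and from 2 to 8 lower, the lowest number higher without si-C1GALT1-3 replicate 1 and the highest number lower without si-C1GALT1-3 replicate 3. Of the 7 antisense RNAs, normexp left 2 past the threshold, RAB11B-AS1 and SERPINB9-AS1. RAB11B-AS1 ranged from 1.68 to 2.16 over all alternatives and SERPINB9-AS1 from -1.98 to -1.31. The methods' t-test called 0 antisense RNAs at an adjusted p under 0.05 and 63 of the 566 at an unadjusted one, where limma had 85. The share of all probes under the t-test is not given. The median log2 fold change of the antisense RNAs was -0.16 without the mask and 0.0 without normalization, and ran from -0.144 to -0.0135 with an array left out. The correlation of the pairs was 0.0387 without the mask and ran from -0.0428 to 0.0371 with an array left out.

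Of sense genes, 7 of which were lower, 4 were lower with the methods' t-test and 4 without normalization. Of all probes, 961 higher and 577 lower, the counts were 560 and 336 with the methods' t-test, 474 higher without the mask, 500 higher with normexp, and 783 and 295 without normalization. With dim probes left out C1GALT1 stood at -1.00 with an unadjusted p = 0.00984 and passed. It ranged from -1.20 to -0.75 with an array left out. APOBEC3B turned to 0.0103 without the mask. The replicate block gave 6 antisense RNAs higher and 3 lower, and 10 and 7 sense genes. Besides POT1-AS1, ZBTB11-AS1 and LENG8-AS1, the pairing changed the call of LINGO1 (unadjusted p = 0.0324), MAP9 (unadjusted p = 0.0209) and TROAP (unadjusted p = 0.0305), which no longer passed, and of no other named RNA. The cause of these changes was not tested.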

Other observations

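Related RNAs named for a neighbouring gene were counted by the same detection rule. Divergent transcripts, with symbols ending in -DT, start beside a gene and run away from it. Of 210 such genes 137 were detected, 3 rose and 1 fell past the threshold (2.92%, against 2.64% of all probes), and their median log2 fold change was 0.01. MAN1B1-DT rose by 1.34 (SE 0.18), USP46-DT by 1.15 (SE 0.25) and SRP14-DT by 1.03 (SE 0.14), and RABGAP1L-DT was at -1.13 (SE 0.29). Among 52 detected RNAs ending in -AS2 or -AS3 and 34 noncoding RNAs ending in -OT, OT1 or -IT1, limma called 0 and 0 at the same threshold, with 8 and 2 at an unadjusted p under 0.05. Over all probes, 2.64% passed the threshold and 13.8% had an unadjusted p under 0.05. The names given here were chosen after the values were seen.

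Of the 386 antisense genes that were not detected on all arrays, 11 passed the threshold (2.85%, against 2.64% of all probes), 7 higher and 4 lower. Of these 11, 4 were detected on 0 arrays. IRS4-AS1, detected on 3 si-Control arrays and 1 si-C1GALT1-3 array, read 7.87, 7.35 and 7.36 against 5.82, 3.16 and 3.16, a log2 fold change of -3.48 (SE 0.76), and IRS4 was at -0.02. On the other si-C1GALT1-3 arrays IRS4-AS1 was not well above background, so -3.48 is a fitted value and not a measured fold. GORAB-AS1, detected on 0 of the si-Control and all 3 of the si-C1GALT1-3 arrays, read 5.26, 4.42 and 5.12 against 7.56, 6.96 and 8.12 and was at least 4.22-fold higher after knockdown. GORAB, a Golgi protein, was at 0.21 without passing. C1QTNF1-AS1, with si-Control replicate 2 masked, read 7.45 and 8.26 against 9.45, 9.30 and 10.09, a log2 fold change of 1.76 (SE 0.37), and C1QTNF1 was at -0.83 without passing. ZNF561-AS1, likewise masked, was detected on 0 si-Control and 2 si-C1GALT1-3 arrays, so no fold is given.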
